A study of Oryza sativa with 72 samples.

Results

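Leaves of different age on stressed rice plants were compared: the fully expanded latest leaf against the second latest leaf, in plants under drought and in plants just watered again. The cultivar was IR64, an indica rice grown in the tropics. The comparison used 12 of the 72 libraries of the series, defined by their labels as the treated libraries of 2 stages, and all 55986 rows of the count table. Plants were 14 days old, counted from sowing, when their pots were raised above the water supply to drain. The severe drought lasted 9 days, and 6 days of watering followed. One group of 3 libraries for each leaf came from drought day 6. Another group of 3 for each leaf came from 2 h after watering had resumed. Irrigated plants of the same stages gave 12 further libraries and served as the background. Each library holds the RNA of a ground leaf sample, and in such bulk samples fewer cells of a type and less RNA per cell cannot be told apart. Seedlings were grown 1 to a pot. The labels give replicate numbers 1 to 3 and do not say whether same-numbered leaves came from 1 plant or replicates from separate ones.

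In grasses such as rice, leaves form in sequence, so the second latest leaf is older than the latest one. A young leaf that has just expanded is commonly richer in transcripts of chloroplast building and growth, whereas an older leaf exports more of its nitrogen and moves toward senescence. Drought raises abscisic acid, the hormone that closes stomata, and commonly hastens senescence of older leaves first. Watering restores turgor within hours. The rows of the deposited table carry no gene identifier, so none of these genes could be looked up, the leaf identity of the samples could not be checked against marker genes, and no sequence is shown. A row is called a feature here and is named by its place in the table, and nothing is said of its function.

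Total counts ran from 9787155 to 17353730 in the 12 libraries, with a median of 14201007. The 24 libraries of both treatments ran from 6370914 to 23026735. Both of the latter limits came from irrigated replicate 2 of 2 h, the lower from the latest leaf. Within the treated pairs depth went with the leaf. At day 6 each latest leaf was shallower than its second latest leaf (13392221, 13764577 and 9787155 against 14729825, 15617927 and 14572745). At 2 h each was deeper (15638011, 16044548 and 17353730 against 13829269, 13272072 and 12573306). The part of depth in the leaf differences was not tested. Levels below are counts per 1000000 counts (CPM) scaled by the trimmed mean of M values (TMM). Same-numbered leaves deviated from their group means in the same direction. The correlation of these deviations across features was 0.199 to 0.429 in the 6 treated pairs. Leaves were therefore compared within same-numbered pairs. The standard deviation between replicates, as a root mean square over features of log2 CPM, was 0.335 in latest and 0.373 in second latest leaves at day 6. That of the paired difference was 0.396, where unrelated leaves would give 0.501. At 2 h the values were 0.351, 0.343 and 0.407, against 0.49.

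Stage separated the treated libraries first and leaf position second. On the first principal component, with 43.2% of the variance, the drought day 6 libraries scored 28.8 to 58.5 and the 2 h libraries -48.5 to -33.4. On the second component, with 21.1%, every latest leaf scored above its same-numbered second latest leaf. At day 6 the latest leaves scored 22.5 to 35.5 and the second latest leaves -37.1 to -16.3. At 2 h the latest leaves scored -3.29, 36.5 and 45 in replicates 1, 2 and 3, and the second latest leaves -44.6, -14.2 and -16. Replicate 1 at 2 h thus scored lowest in both leaves, and the groups did not overlap at either stage.

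**Figure D1:**
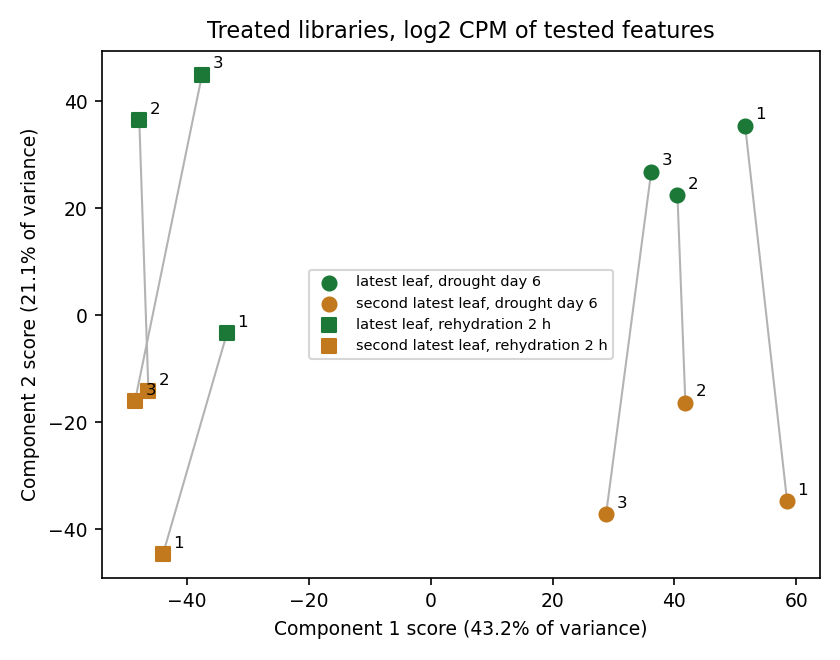
Scores of the 12 treated libraries on the first and second principal components of log2 CPM. Circles are drought day 6, squares rehydration 2 h, green the latest and orange the second latest leaf, numbers are replicates, and lines join same-numbered leaves. In all 6 pairs the latest leaf lies above the second latest leaf, and the stages lie apart on the first component.

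At drought day 6 leaves differed in features of both directions. Of 19946 features tested, 1340 were higher in the latest leaf and 1014 higher in the second latest leaf, so that 2354 were called by edgeR at an adjusted p under 0.05 (11.8% of those tested, 6.72% and 5.08% by direction). The split by direction moved with scaling and fit: it was 1257 and 1154 with relative log expression factors and 1211 and 1237 in a fit of all 24 libraries. Most differences were small. The median log2 fold change, latest over second latest leaf, was 0.62 for the features higher in the latest leaf (quartiles 0.42 and 0.92) and -0.59 for the others (-1.04 and -0.41). At least 2-fold differences numbered 291 and 270, and at least 4-fold ones 61 and 83. Calls rested on the pairing and on single pairs. Without the replicate block 75 were called, and leaving out treated replicate 1 or 3 of day 6 gave 360 (255 and 105 by direction) or 532 (360 and 172), while DESeq2 called 1500 and a fit of all 71 usable libraries 1488.

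At 2 h after watering resumed the leaves differed about as widely. edgeR called 2022 features (10.1%), of which 978 (4.9%) were higher in the latest leaf and 1044 (5.23%) in the second latest leaf. Their median log2 fold changes were 0.62 and -0.52. At least 2-fold differences numbered 221 and 192, and at least 4-fold ones 47 and 49. Without the replicate block edgeR called 0, and 3621 had an unadjusted p under 0.05, while DESeq2 with the block called 1332. Leaving out treated replicate 2 or 3 of 2 h gave 672 or 177, the libraries of the stage alone gave 1344 and all 71 usable libraries 1071.

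Calls were more frequent among abundant features. The tested features were ranked by mean CPM and split into 4 groups of like size. In the lowest group (0.302 to 3.36 CPM) 6.3% were called at day 6 and 3.93% at 2 h, and in the highest group (37.3 to 16200 CPM) 17.7% and 16.6%. The called features of the lowest group had a median absolute log2 fold change of 1.53 at day 6 and 1.48 at 2 h, against 0.43 at either stage in the highest group. In the highest group at day 6, 564 features were higher in the latest leaf and 321 in the second latest leaf, while the lowest group had 144 and 170. Features present in one leaf alone were nearly lacking: 1 feature at day 6 and 0 at 2 h had at least 10 counts in each library of one leaf and no count in the other leaf.

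The same features tended to separate the leaves at drought day 6 and at 2 h after watering resumed. Drought ran on to day 9 between these stages, so day 6 is not the state just before watering. No library is shared by the 2 comparisons, although they share a fit and its estimate of spread. Of the features higher in the latest leaf, 597 were called at both stages, which is 44.6% of the day 6 calls and 61% of the 2 h calls (2.99% of all tested). Of those higher in the second latest leaf, 468 were called at both, 46.2% and 44.8% (2.35% of all tested). Only 4 features were called in opposite directions. The number called at both stages in 1 direction, 1065 in all, was 0 without the replicate block (edgeR), 751 by DESeq2, 2043 without the low-count filter, 488 in the fit of all 71 usable libraries and 202 with at least 2-fold differences at both stages. Leaving out 1 pair lowered it most for treated replicate 3 of 2 h, to 149, and gave 276 and 347 without treated replicates 1 and 3 of day 6 and 462 without treated replicate 2 of 2 h.

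Features called at one stage mostly leaned the same way at the other. Of the 1340 features higher in the latest leaf at day 6, 96.5% had a positive mean difference at 2 h, beside 48.7% of all tested features, and 81.6% were higher in the latest leaf in all 3 pairs, beside 22.4%. Of the 1014 features higher in the second latest leaf at day 6, 96.4% were negative at 2 h (51.3% of all tested) and 85.7% in all 3 pairs (25.5%). Features called only at day 6 numbered 1285, with a median absolute log2 fold change of 0.58 at day 6 and 0.27 at 2 h. Those called only at 2 h numbered 953, with 0.28 and 0.51. Each of these lists was chosen at the stage where its value is larger. Across all 19946 features the log2 fold changes of the stages had a Pearson r of 0.676 and a Spearman rho of 0.628, a description across features, which are not independent replicates.

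**Figure D2:**
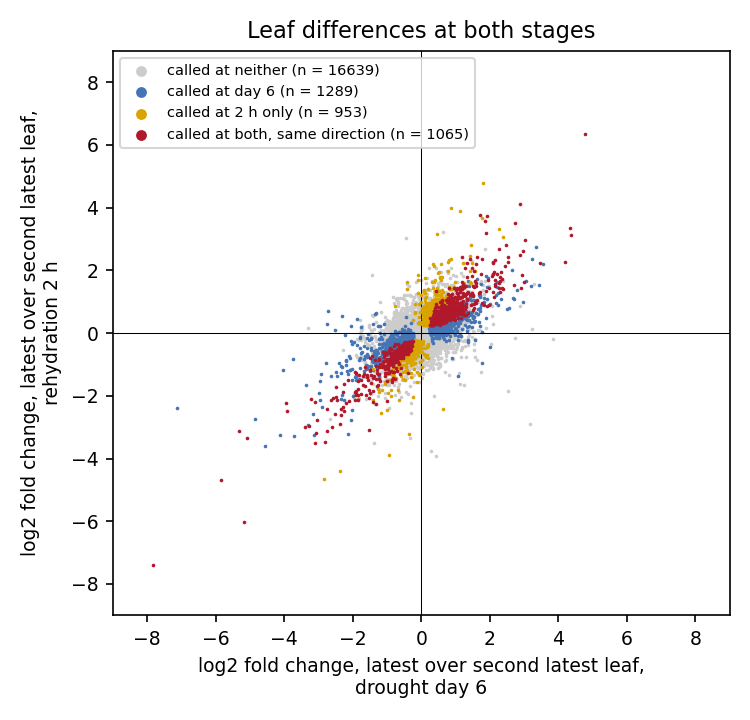
Log2 fold change of each tested feature, latest over second latest leaf, at drought day 6 (x axis) and at rehydration 2 h (y axis). The 1065 features called at both stages in 1 direction are red, and lie in the lower left and upper right quadrants.

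The change of the leaf difference from day 6 to 2 h was tested directly. edgeR called 0 of 19946 features (0%), while 1085 had an unadjusted p under 0.05 (5.44% of those tested) and DESeq2 called 9. Leaving out treated replicate 2 of day 6 gave 24 and leaving out treated replicate 1 of 2 h gave 17. Without the low-count filter 343 were called. The median standard error of this change was 0.19 on the log2 scale, against 0.14 for the leaf difference at a stage. A p that misses the threshold does not show that the leaf difference stayed the same.

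Shares of counts gave the size of the lists of one stage in the libraries of the other. As the stages shared a fit, those libraries had a part in its filter, scaling and estimate of spread, though not in the leaf effect tested. The features higher in the latest leaf at day 6 took 20.3%, 27.1% and 28.1% of the counts of the latest leaves at 2 h (replicates 1, 2 and 3). They took 16.2%, 19.8% and 19.5% of those of the second latest leaves. The latest leaf had the larger share in each pair and the groups did not overlap. The features higher in the second latest leaf at day 6 took 7.18%, 6.07% and 6.19% of the counts of the second latest leaves at 2 h. In the latest leaves they took 5.62%, 4.4% and 3.92%, again with no overlap. Read the other way, the features higher in the latest leaf at 2 h took 14.1% ± 0.227 of the counts in latest and 9.15% ± 0.946 in second latest leaves of day 6 (SD, n = 3 each). Those higher in the second latest leaf at 2 h took 4.61% ± 0.235 and 6.99% ± 0.281. In irrigated leaves the mean shares of each list leaned the same way at both stages. The list higher in the latest leaf at day 6 took 28.4% ± 4.57 in irrigated latest and 21.8% ± 3.76 in irrigated second latest leaves of day 6. The list higher in the second latest leaf at day 6 took 4.35% ± 0.733 and 5.7% ± 0.652 there.

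Counts also leaned toward fewer features in the latest leaf of these pairs, although neither measure of this passed its test after adjustment. The 10 most abundant features took 8.42%, 10.0% and 9.02% of the counts of the latest leaves at day 6, and 7.64%, 8.37% and 7.70% of those of the second latest leaves. At 2 h they took 7.68%, 9.45% and 9.97% in latest and 7.60%, 7.87% and 8.08% in second latest leaves. The share was higher in the latest leaf in 6 of 6 pairs, by 1.22 percentage points ± 0.673 (SD, n = 6 pairs). In an exact two-sided sign-flip permutation test p was 0.03125, the smallest that 6 pairs allow, and 0.0625 after adjustment over 2 library measures, which did not pass. At 2 h the gap was close to 0 in replicate 1 and wide in the other pairs. Thinned to 5000000 counts, the number of features with a count, latest minus second latest leaf, was -191 (SD 175, n = 6 pairs, lower in the latest leaf in 5 of 6 pairs, exact sign-flip permutation p = 0.0625, and 0.0625 adjusted). Replicate 1 of 2 h was the exception, with 23630 features in the latest and 23480 in the second latest leaf.

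Single features show how far the leaves could differ. From the features called at both stages in 1 direction, with at least 10 CPM in the higher leaf and the same sign in all pairs, 817 were eligible, and the 2 with the largest differences in each direction are described. They were thus chosen by these tests, and their p-values are given as a description. Feature 32024 stood at 34.8, 47.1 and 38.8 CPM in the latest leaves of day 6 and at 1.32, 2.99 and 0.172 CPM in the second latest leaves. At 2 h it stood at 1.56, 38.8 and 68.5 CPM in the latest leaves and at 0.0684, 0.870 and 0.310 CPM in the second latest leaves. The leaves did not overlap at either stage, and latest leaf replicate 1 of 2 h was far below the other two. Its log2 fold change was 4.79 at day 6 (SE 0.375, edgeR adjusted p = 0.000439) and 6.33 at 2 h (SE 0.532, adjusted p = 0.000758). The second latest leaves of 2 h held only 1, 12 and 4 counts of it, so the size at 2 h is loosely bound. It was 7.44 without treated replicate 2 of 2 h and 5.37 without treated replicate 3, and the day 6 value was 5.6 without treated replicate 2 of day 6.

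In irrigated plants feature 32024 was also higher in the latest leaf. It stood at 106 ± 37.3 against 30.6 ± 26.0 CPM at day 6, and at 121 ± 46.6 against 27.8 ± 5.30 CPM at 2 h (SD, n = 3 each). In either leaf and at either stage, the stressed libraries lay below all irrigated ones, with no overlap. The difference between treated and irrigated leaf contrasts was 2.65 at day 6 (SE 0.607, edgeR adjusted p = 0.101) and 4.27 at 2 h (SE 0.819, adjusted p = 0.106), which did not pass. At other stages of the treated plants its mean was 155 CPM in latest and 37.4 CPM in second latest leaves at drought day 0 (n = 3 each). It was 2.73 CPM (n = 2) and 0.223 CPM (n = 3) at drought day 9, and 170 and 28.9 CPM on day 6 of rehydration (n = 3 each).

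Feature 19456 followed the same course. It stood at 79.0, 81.1 and 125 CPM in the latest leaves of day 6 against 0.631, 12.4 and 2.81 CPM in the second latest leaves. At 2 h the latest leaves had 14.6, 75.7 and 223 CPM and the second latest leaves 0.752, 8.05 and 32.1 CPM. At day 6 the leaves did not overlap, and at 2 h they overlapped as groups although each pair went the same way. The log2 fold change was 4.38 (SE 0.527, edgeR adjusted p = 0.00153) at day 6 and 3.12 (SE 0.509, adjusted p = 0.00881) at 2 h. Without treated replicate 2 of day 6 the day 6 value was 5.93. The call at 2 h ended without treated replicate 3 of 2 h (adjusted p = 0.0757). Irrigated latest leaves had 207 ± 87.2 and second latest leaves 65.9 ± 14.0 CPM at day 6 (SD, n = 3 each). The treated minus irrigated leaf contrast of the feature was 2.81 at day 6 (SE 0.614, edgeR adjusted p = 0.0914). At 2 h it was 1.21 (SE 0.598, adjusted p = 0.458), and neither passed. In treated plants its mean was 244 CPM in latest and 77.7 CPM in second latest leaves at drought day 0 (n = 3 each), and 4.08 CPM (n = 2) and 0.879 CPM (n = 3) at drought day 9.

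Feature 40033 had the opposite pattern. It stood at 1.19, 0.901 and 1.75 CPM in the latest leaves of day 6 and at 14.0, 2.99 and 18.6 CPM in the second latest leaves. At 2 h the latest leaves had 5.52, 0.646 and 0.180 CPM and the second latest leaves 79.2, 2.90 and 1.32 CPM. Replicate 1 of 2 h was high in both leaves, so the groups overlapped there while each pair did not. The feature met the limit of 10 CPM at 2 h through this replicate alone. The latest leaves of 2 h held 92, 10 and 3 counts of it. Its log2 fold change was -3.12 (SE 0.317, edgeR adjusted p = 0.001) at day 6 and -3.50 (SE 0.34, adjusted p = 0.00116) at 2 h. The 2 h value was -2.36 without treated replicate 1 of 2 h, with an edgeR adjusted p of 0.0212. Irrigated leaves had little of it, 0.654 ± 0.279 CPM in latest and 1.34 ± 0.567 CPM in second latest leaves at day 6 (SD, n = 3 each). At drought day 0 the treated leaves had near the same level, 1.47 and 1.42 CPM on average (n = 3 each), and at drought day 9 6.02 CPM (n = 2) and 13.9 CPM (n = 3). Its treated minus irrigated leaf contrast was -2.18 at day 6 (SE 0.704, edgeR adjusted p = 0.209). At 2 h it was -2.71 (SE 0.74, adjusted p = 0.168), and neither passed.

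Feature 37062 stood at 24.3, 14.3 and 5.24 CPM in the latest and at 193, 32.7 and 37.7 CPM in the second latest leaves of day 6. At 2 h it stood at 7.92, 1.29 and 1.86 CPM against 54.3, 6.96 and 9.45 CPM. Replicate 1 was again the highest in both leaves, and at 2 h the groups overlapped. Among the second latest leaves of 2 h, only replicate 1 reached 10 CPM. The log2 fold change was -2.35 (SE 0.281, edgeR adjusted p = 0.0015) at day 6 and -2.60 (SE 0.355, adjusted p = 0.00423) at 2 h, and the day 6 value was -2.95 without treated replicate 2 of day 6. It too had near the same level in both leaves at drought day 0, 27.5 and 27.8 CPM on average (n = 3 each), and at drought day 9 it stood at 103 CPM (n = 2) and 157 CPM (n = 3). Irrigated leaves had 11.3 ± 4 CPM in latest and 20.3 ± 12 CPM in second latest leaves at day 6 (SD, n = 3 each). At 2 h they had 10.8 ± 8.53 and 15.8 ± 3.5 CPM. The treated minus irrigated leaf contrast of feature 37062 was -1.58 at day 6 (SE 0.533, edgeR adjusted p = 0.225). At 2 h it was -1.86 (SE 0.614, edgeR adjusted p = 0.253), and neither passed. Without the replicate block none of these 4 features was called at either stage, with adjusted p from 0.0591 to 0.254 over both stages.

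**Figure D3:**
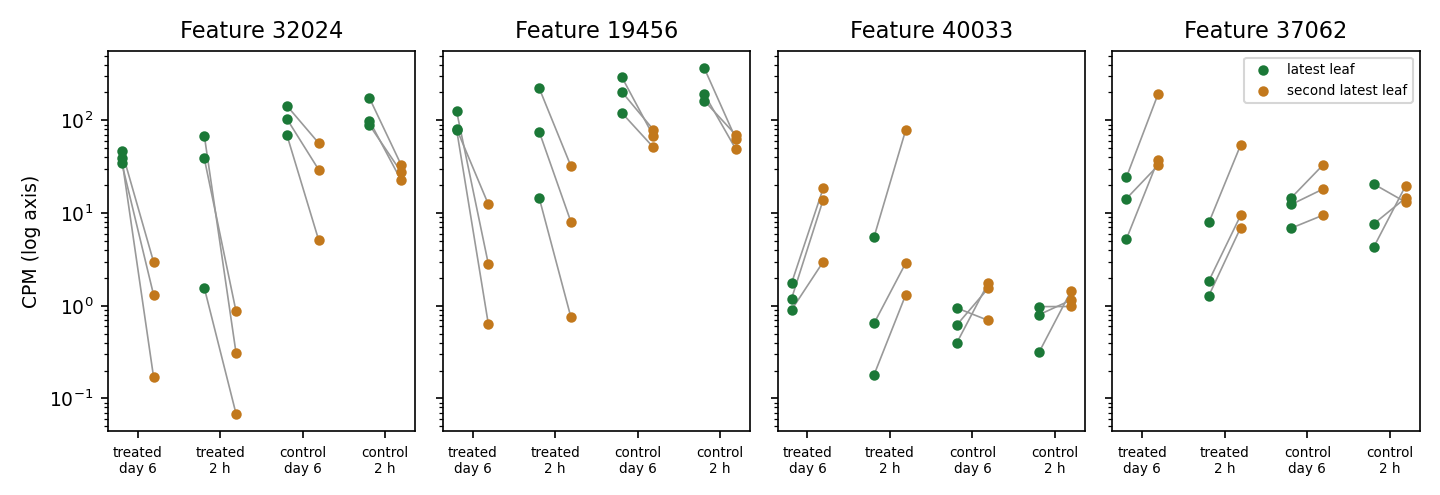
CPM (log axis) of the 4 features in every treated and irrigated library of both stages. Green points are latest and orange points second latest leaves, and lines join same-numbered leaves. In treated plants all lines of features 32024 and 19456 fall from the latest to the second latest leaf, and all lines of features 40033 and 37062 rise.

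Irrigated plants of the same stages served to show which leaf differences went with stress. In irrigated leaves 1695 of 20553 features were called at day 6 (8.25%), 1004 (4.88%) higher in the latest leaf and 691 (3.36%) in the second latest leaf, and 1772 at 2 h (8.62%), 1169 (5.69%) and 603 (2.93%). The leaf effects of the treatments rest on different libraries. Yet the irrigated calls came from a fit of all 24 libraries, and the treated ones helped set its filter, scaling and spread. In this fit the treated calls numbered 2448 at day 6 and 2104 at 2 h, of 20553 features. The treated calls below are those of the fit of 12 libraries. The calls were set side by side over the 19929 features in both fits, which hold 988 and 670 of the irrigated calls of day 6 and 1142 and 595 of those of 2 h. At day 6, 437 features were higher in the latest leaf in both treatments, 32.6% of the treated and 44.2% of the irrigated calls, and 249 were higher in the second latest leaf in both, 24.6% and 37.2%. At 2 h these numbers were 427 (43.7% and 37.4%) and 208 (19.9% and 35%). Most features called in the stressed plants leaned the same way in irrigated ones. Of those higher in the latest leaf under drought, 88.4% had a positive mean difference in irrigated leaves of day 6 (50.7% of all tested), and of those higher in the second latest leaf 83.9% a negative one (49.3% of all tested).

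The leaf contrast seen at drought day 0 was present in both stressed and irrigated plants. A score was built from the leaf differences of the 12 libraries of that day, both treatments together. There 2744 of 19295 features were higher in the latest leaf (14.2%) and 2647 in the second latest leaf (13.7%), by the same paired edgeR test. The score is the mean log2 CPM of the former minus that of the latter, and its gap is the value of the latest minus that of the second latest leaf of a pair. At day 6 the gap was 0.84, 0.608 and 0.724 in treated and 0.946, 0.686 and 0.632 in irrigated pairs. At 2 h it was 0.42, 0.798 and 0.952 in treated and 0.938, 0.789 and 0.71 in irrigated pairs. The groups overlapped at both stages, and replicate 1 of 2 h had the smallest treated gap. In the other stages, the treated pairs of drought day 9 had the smallest gaps of all, 0.35 and 0.407 (2 usable pairs), against 0.845 to 1.72 in irrigated pairs.

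**Figure D4:**
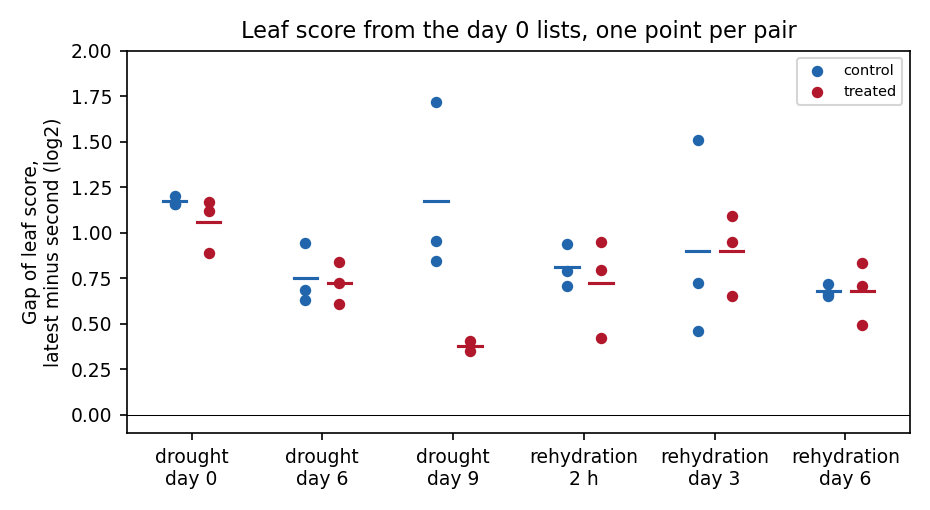
Gap of the leaf score, latest minus second latest leaf on the log2 scale, for each same-numbered pair at the 6 stages. The score uses the features called between leaves at drought day 0, points are pairs, bars are means, and blue is irrigated and red treated. At drought day 6 and at 2 h the treated and irrigated points overlap, and all gaps are above 0. The gaps of drought day 0 come from the pairs in which the features were chosen, which favours large gaps there.

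At drought day 6 the leaf differences of stressed pairs correlated more with each other than with those of irrigated pairs, which was not tested. The difference between the leaves of a pair was correlated across 20553 features with that of every other pair. Between pairs of drought day 6, Pearson r was 0.422 to 0.556 (3 comparisons), and between a treated day 6 and a treated 2 h pair 0.34 to 0.48 (median 0.407, 9 comparisons). Between a treated and an irrigated pair of day 6 it was 0.221 to 0.381 (median 0.29), and among irrigated pairs of day 6 it was 0.304 to 0.351. At 2 h, treated pairs had 0.272 to 0.534 among themselves and 0.142 to 0.455 with irrigated pairs. Replicate 1 of 2 h gave the lowest values in both. These are descriptions across features, and the points share depth and the filter on low counts. With features of at least 10 CPM on average (10949), the ranges were 0.574 to 0.75 among treated day 6 pairs, 0.537 to 0.678 between the treated stages and 0.235 to 0.522 between treatments at day 6. Irrigated pairs of day 6 then had 0.39 to 0.563.

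**Figure D5:**
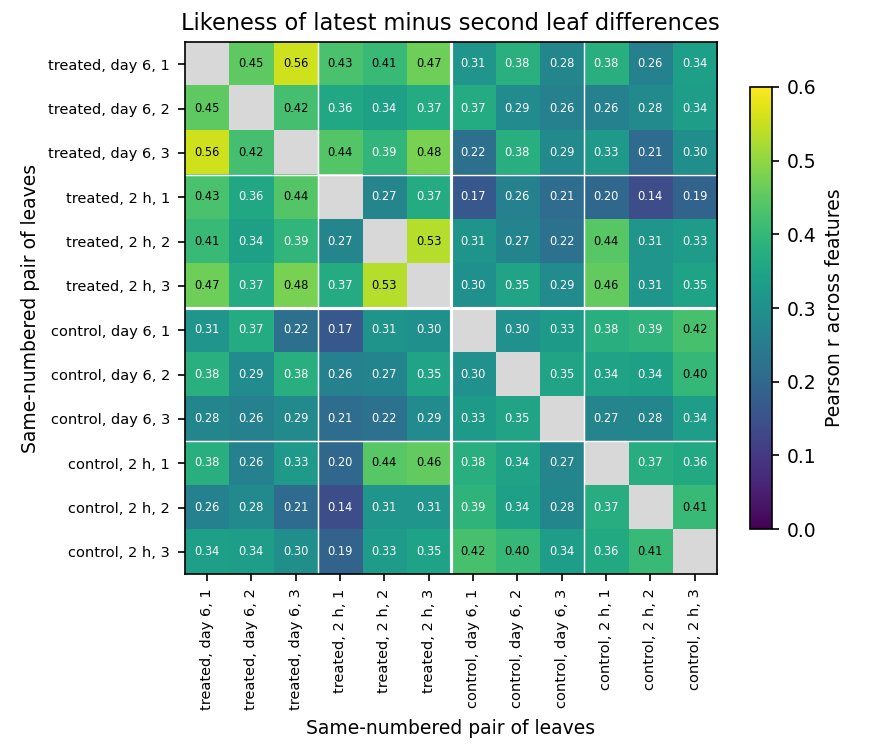
Pearson r across 20553 features between the latest minus second latest leaf differences of any 2 same-numbered pairs, grouped by treatment and stage. Values among the 3 treated pairs of drought day 6 are 0.422 to 0.556, and treated replicate 1 of 2 h has the lowest values with irrigated pairs.

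edgeR called few features whose leaf difference itself differed between stressed and irrigated plants. Here too, a p that misses the threshold does not show that the leaf difference was the same in both treatments. At day 6 edgeR called 24 of 20553 (0.117%), 11 with a larger latest over second ratio in stressed plants (0.0535%) and 13 with a smaller one (0.0633%), and 2697 had an unadjusted p under 0.05 (13.1%). With relative log expression factors the split was 15 larger and 11 smaller. In 16 of the 24 the leaf difference had opposite signs in the treatments. The 24 were chosen for a gap between the leaf differences, which favours opposite signs, and some of these differences lay near 0. In feature 48684, for example, that of irrigated leaves was -0.0139 (edgeR adjusted p = 0.945). The leaf difference was called in treated leaves alone for 9, in irrigated leaves alone for 5 and in both for 10. At 2 h there were 3 (0.0146%), 2 larger (0.00973%) and 1 smaller (0.00487%), with 2382 at an unadjusted p under 0.05 (11.6%). These counts moved with almost every choice: the fit without the replicate block gave 0 at both stages, DESeq2 137 and 132 and all 71 usable libraries 2 and 0. At day 6, leaving out treated replicate 1, 2 or 3 gave 0, 162 and 1, and control replicate 1, 2 or 3 gave 8, 1 and 1. At 2 h the same gave 8, 17 and 0 for treated and 11, 0 and 0 for control replicates.

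The features named by rule at day 6 fell into different patterns. Feature 11434 stood at 28.9, 31.4 and 37.5 CPM in stressed latest and at 1.66, 5.82 and 5.39 CPM in stressed second latest leaves. Irrigated leaves had 58.9 ± 30.6 and 27.3 ± 7.25 CPM (SD, n = 3 each), so that the leaf difference had 1 direction in both treatments and was wider under drought (contrast 1.91, SE 0.321, edgeR adjusted p = 0.0407). Feature 10030 differed between leaves in irrigated plants, 3.3 ± 0.431 CPM in latest and 12.8 ± 3.55 CPM in second latest leaves. In stressed plants it stood at 19.7, 21.6 and 23.1 against 22.4, 23.9 and 28.8 CPM, near the same level in both leaves (contrast 1.69, SE 0.294, edgeR adjusted p = 0.0407).

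Features 8912 and 53121 were the named ones with a smaller ratio under drought. Feature 8912 stood at 3.63, 4.16 and 3.4 CPM in stressed latest and at 19.0, 15.9 and 18.6 CPM in stressed second latest leaves, without overlap. Irrigated leaves had 6.61 ± 4.65 and 6.31 ± 2.18 CPM (SD, n = 3 each; contrast -2.25, SE 0.328, edgeR adjusted p = 0.0197). Irrigated latest leaf replicate 2 stood at 11.9 CPM, and replicates 1 and 3 at 3.36 and 4.53 CPM. At 2 h feature 8912 was also higher in irrigated second latest leaves (log2 fold change -0.897, edgeR adjusted p = 0.0308). Its contrast at 2 h was -1.6 (SE 0.361, edgeR adjusted p = 0.142), which did not pass. Feature 53121 stood at 0.279, 0.762 and 0.0919 CPM in stressed latest and at 1.43, 9.04 and 0.803 CPM in stressed second latest leaves, against 11 ± 8.75 and 14.0 ± 9.20 CPM in irrigated ones. It met the limit of 10 CPM through its irrigated leaves alone, averaged 3.76 CPM in the higher stressed leaf, and rested on 4, 11 and 1 counts in the stressed latest leaves (contrast -2.81, SE 0.492, edgeR adjusted p = 0.0408). Leaving out treated replicate 1 or 3 of day 6, or control replicate 2 or 3, ended the call of each of these 4 features (edgeR adjusted p 0.0771 to 0.179). Leaving out control replicate 1 also ended those of features 10030 and 53121 (0.0674 and 0.0661), and leaving out treated replicate 2 that of feature 53121 (0.207, contrast -2.09). The fit of 71 libraries ended all 4 calls (0.0654 to 0.347), and the libraries of day 6 alone that of feature 11434 (0.0639).

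At 2 h all 3 called features were named. Feature 46287 stood at 7.14, 3.29 and 5.64 CPM in rewatered latest and at 12.1, 12 and 21 CPM in rewatered second latest leaves, whereas irrigated leaves had 14.3 ± 1.60 and 9.97 ± 1.39 CPM (SD, n = 3 each; contrast -2, SE 0.27, edgeR adjusted p = 0.0383). Feature 5476 stood at 53.3, 46.1 and 46.9 CPM against 25.7, 30.7 and 26.8 CPM, and irrigated leaves had 65.0 ± 7.19 and 71 ± 7.26 CPM (contrast 0.94, SE 0.142, edgeR adjusted p = 0.0466). Feature 6036 stood at 23.0, 19.6 and 23.9 CPM against 14.0, 12.6 and 12.1 CPM, with 54.2 ± 19.4 and 56.8 ± 19.9 CPM in irrigated leaves (contrast 0.85, SE 0.128, edgeR adjusted p = 0.0466). Rewatered latest and second latest leaves did not overlap in any of the 3. Leaving out treated replicate 3, control replicate 2 or control replicate 3 of 2 h ended the call of each (edgeR adjusted p 0.089 to 0.268). Leaving out treated replicate 1 also ended those of features 5476 and 6036 (0.0826 and 0.0592), and leaving out control replicate 1 that of feature 6036 (0.0544). All 3 calls also ended with the libraries of 2 h alone (0.0881 each) and with 71 libraries (0.0669 to 0.261), and those of features 5476 and 6036 with relative log expression factors (0.0528 each). DESeq2 with the block called features 5476 and 6036 and gave no adjusted p for feature 46287.

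The lists found at 2 h were also set beside the drought response of day 6, which compared other libraries. The 2 h lists came from a fit that also held the treated libraries of day 6. In latest leaves of day 6, 701 of 20553 features were called higher in stressed than in irrigated plants (3.41%) and 1042 lower (5.07%), by edgeR without a block. Of the 978 features higher in the latest leaf at 2 h, 9.61% were raised and 3.17% lowered there. Of the 1044 features higher in the second latest leaf at 2 h, 1.92% were raised and 11.1% lowered, and their median log2 fold change by drought was -0.26, beside -0.03 over all features. In second latest leaves the shares lay nearer the 1.94% raised and 2.04% lowered over all features. They were 3.37% raised and 4.70% lowered for the first list, and 1.72% and 2.49% for the second. Both lists hold more abundant features than the whole table, and calls are more frequent among these, whose part in the shares was not tested.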

How the data were processed

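The deposited table holds raw read counts. The submitters' processing notes name STAR, featureCounts 2.0.0 and the genome build IRGSP-1.0. The kit keeps strand, per the labels' protocols, but the counting strand, annotation and handling of reads with several matches were not given, so overlapping, antisense or near-identical genes may share counts. All 72 columns were matched to samples by library name. Rows carry no identifier, so no marker list was applied.

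Counts were tested in R 4.3.3 with edgeR 4.0.16 (filterByExpr, TMM, glmQLFit, glmQLFTest, Benjamini-Hochberg adjustment, threshold 0.05). The model for the 12 treated libraries had 1 mean per same-numbered pair and 1 leaf effect per stage. Contrasts with irrigated leaves, and the leaf differences of irrigated plants, used 24 libraries. Same-numbered leaves were taken as paired because all 12 pairs of both treatments correlated above 0.1 (0.196 to 0.429). The 24 replicate pairs held 0 identical ones (chi-square per degree of freedom 6.12 to 60.2). The p-values reflect only how these libraries spread, and that spread may be technical. One library of drought day 9 with 1755 counts was left out, leaving 71 usable libraries, whose TMM factors gave all printed CPM. Scores used a prior count of 2. At the smallest depth among the 12 libraries, 3 counts equal 0.307 CPM, which covers counting error only.

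The tests were tried on simulated data. Alternatives used DESeq2 1.42.0 and the settings of the closing section. Features were named by a rule: called, a mean of at least 10 CPM in the higher leaf (at both stages, or in either treatment for the contrasts), the 2 largest per direction. Pairs had to share a sign only where the leaf difference itself was called. The members, lists and tests were chosen with earlier results of these data known.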

Additional observations from a re-analysis of the deposited data

Results flagged for a closer look

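The contrast of the leaf difference between stressed and irrigated plants passed the test for 24 features at drought day 6 and for 3 at rehydration 2 h. The named ones had log2 contrasts, treated minus control, of 1.91 (feature 11434), 1.69 (feature 10030), -2.81 (feature 53121) and -2.25 (feature 8912) at day 6. At 2 h they were 0.944 (feature 5476), 0.852 (feature 6036) and -2 (feature 46287). Each was listed because the difference between the treatments was itself tested, and none was called when the replicate block was left out. Groups of 3 libraries were too small for the check on single outlying samples.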

How the results depend on the processing

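The leaf differences depended on the pairing. Without the replicate block edgeR called 75 features at day 6 (3886 at an unadjusted p under 0.05) and 0 at 2 h (3621). It called 0 for the contrasts with irrigated leaves at day 6 and 2 h (1372 and 1111 at an unadjusted p under 0.05) and 0 at both stages in 1 direction. Without the low-count filter the counts were 3740 at day 6, 3391 at 2 h, 2043 at both, 343 for the change between stages, and 780 and 527 for the contrasts. DESeq2 with the block called 1500, 1332, 9 for the change, and 137 and 132 for the contrasts. Requiring at least 2-fold left 561, 413, 202 at both, and 12 and 1 for the contrasts. The 71 usable libraries gave 1488, 1071, 488 at both, and 2 and 0, and the libraries of one stage alone 1344 at 2 h, 7 for the day 6 contrast (4 of them among the 24) and 2 for the 2 h contrast (0 of them among the 3). Relative log expression factors gave 1 for the 2 h contrast, and its split at day 6 was 15 larger and 11 smaller. Leaving out 1 pair at a time gave 360 to 2736 at day 6, 177 to 2015 at 2 h, 149 to 1100 at both, 0 to 24 for the change, and 0 to 162 and 0 to 17 for the contrasts. The library measures kept their direction under all their alternatives, as did the named features under theirs. For feature 46287 these leave out DESeq2, which gave it no adjusted p. The fits of 71 libraries, the count called at both stages and the 2-fold limit on the contrasts were chosen after seeing the data. Without the filter, feature 32024 at day 6 had an SE of 0.157 in place of 0.375 and an edgeR adjusted p of 6.15e-200, whereas the SE of feature 5476 in the 2 h contrast was 0.148 in place of 0.142. The causes of these shifts were not tested. With 3 pairs a stage, leaving out 1 leaves 2. Total counts of 9787155 to 17353730 put the floor of 3 counts at 0.307 CPM in the shallowest of the 12 libraries.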

Other observations

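Replicate 1 of the rewatered plants stood apart in several of these values, in both leaves. It was lowest on the second principal component in the latest leaf (-3.29) and in the second latest leaf (-44.6). Its gap of the day 0 leaf score was 0.42, against 0.798 and 0.952 in the other rewatered pairs. The features called at both stages had a gap of 1.32 in it, against 1.56 and 1.88, and their gaps in treated pairs of day 6 were 1.94, 1.29 and 1.81. Those features were chosen in these pairs. In pairs that had no part in the choice, the gap was 0.739 to 1.31 in treated plants of drought day 0, 0.68 and 0.939 on drought day 9, 0.597 to 1.69 on day 3 of rehydration and 0.719 to 0.878 on day 6 of rehydration. In irrigated plants it was 1.28 to 1.4 at drought day 0, 0.85 to 1.14 at drought day 6 and 1.09 to 2.43 on drought day 9. After drought had ended, irrigated pairs had 0.905 to 1.26 at 2 h, 0.824 to 2.18 on day 3 and 0.962 to 1.18 on day 6 of rehydration.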
